A study of Mus musculus with 30 samples.

Results

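Smooth muscle cells and myofibroblasts build their contractile apparatus from actin-binding proteins and from a myosin that is switched on by phosphorylation of its regulatory light chain. The 9 genes described here encode parts of that apparatus: Tagln (transgelin), Cnn1 and Cnn2 (calponins), Cald1 (caldesmon), Smtn (smoothelin), Lmod1 (leiomodin), Myh11 (smooth muscle myosin heavy chain), Myl9 (myosin regulatory light chain) and Mylk (myosin light chain kinase). They were chosen by name, with every probe set that the platform annotation assigns to the 9 symbols, which gave 16 of 45037 probe sets and 9 of 18193 genes. Each gene was represented by its brightest probe set, and the other 7 probe sets are described beside it. Tagln, Cnn1, Cnn2, Lmod1, Smtn and Myl9 had 1 probe set each, Myh11 had 2, Mylk 3 and Cald1 5.

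RNA was profiled on 30 Affymetrix mouse arrays from embryonic fibroblasts of MyoD-/-/Myf5-/- animals, which lack the genes for a pair of transcription factors of the skeletal muscle lineage. All cells had received a retrovirus, which carried wild-type mouse MyoD joined to the hormone-binding part of the estrogen receptor (ER-MyoD wt), the same fusion with lysines 99, 102 and 104 changed to residues that take no acetyl group (ER-MyoD RRR), or no insert (empty retrovirus). There were 10 groups of 3 arrays, named by the hours spent in differentiation medium to which beta-estradiol was added. ER-MyoD wt was sampled at 0, 6, 12 and 24 h, and the other constructs at 6, 12 and 24 h. Arrays at 0 h were analysed here for ER-MyoD wt only, so a difference from 0 h in another construct joins construct and time. The labels do not say that the 3 arrays of a group came from separate cultures, so the p-values reflect the spread of these samples alone, and that spread may be technical.

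Many genes of this apparatus are controlled by serum response factor (SRF), which binds a short DNA element called the CArG box and works with myocardin or with the myocardin-related factors that follow the state of cellular actin. In fibroblasts the same genes are known to rise when cells spread, meet serum or TGF-beta, and become myofibroblasts. MyoD binds another element, the E-box, at skeletal muscle genes. Immature skeletal muscle is also known to use some smooth muscle proteins for a time.

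Promoter sequence was available from RefSeq (GRCm38.p6) for 7 of the 9 genes, as windows from 250 bases before to 50 bases after each annotated start. Tagln and Myh11 had no entry. A CArG box was found in 2 of the 7 genes, Cnn2 and Myl9, and in 1.63% of all 32851 promoter windows. The E-box letters CANNTG were found in 6 of the 7 genes and in 72.3% of all windows, and the form CAGCTG in Lmod1 alone and in 16.3% of all windows. Both strands were searched, each CAGCTG also counts as a CANNTG, and a match is a description of the letters, not of binding. The stretches before the genes' first annotated base are shown for the 3 genes because 2 of them hold the SRF element and the third holds the MyoD-type E-box, with the element in capitals and all read on the + strand.
Cnn2, chr10:79988350-79988599: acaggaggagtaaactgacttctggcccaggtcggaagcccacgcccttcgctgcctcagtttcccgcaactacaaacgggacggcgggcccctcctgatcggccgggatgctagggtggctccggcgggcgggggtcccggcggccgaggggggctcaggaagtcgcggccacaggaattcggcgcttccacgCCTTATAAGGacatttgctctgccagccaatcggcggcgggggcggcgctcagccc
Myl9, chr2:156775214-156775407: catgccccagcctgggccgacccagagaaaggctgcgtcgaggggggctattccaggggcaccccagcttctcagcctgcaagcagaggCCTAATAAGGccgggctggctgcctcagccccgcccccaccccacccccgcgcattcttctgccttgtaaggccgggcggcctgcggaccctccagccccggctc
Lmod1, chr1:135324563-135324812: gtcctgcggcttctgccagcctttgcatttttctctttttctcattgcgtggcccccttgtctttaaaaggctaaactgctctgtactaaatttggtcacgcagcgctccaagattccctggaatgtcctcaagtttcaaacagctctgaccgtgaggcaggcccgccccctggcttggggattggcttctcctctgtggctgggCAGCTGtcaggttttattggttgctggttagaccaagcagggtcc
The CArG box of Cnn2 begins 56 bases before the start and that of Myl9 161 bases before it, and the CAGCTG of Lmod1 begins 45 bases before the start. The Myl9 stretch is shorter because RefSeq has an annotated base of the gene ahead of the start that defines its window.

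Signals are linear intensities as deposited. They depend on the probes as well as on the RNA, so the percentiles that follow place each probe set on the arrays and do not rank the genes by RNA level. Over the 30 arrays, the median percentile of each gene among all probe sets of an array was 98.8 for Cald1, 98.5 for Cnn2, 94.9 for Tagln, 82.0 for Smtn, 49.9 for Mylk, 44.2 for Myl9, 28.7 for Lmod1, 18.9 for Myh11 and 17.4 for Cnn1. Those of Myh11 and Cnn1, genes that define mature smooth muscle, lay near the bottom of the arrays, and so did Myocd, the gene of myocardin, with group means from 4.39 to 25.9. The actins of smooth muscle were present: the mean of Acta2 in ER-MyoD wt at 0 h was 11718 ± 3116 (SD, n = 3, as for all means given here) and that of Actg2 was 2064 ± 88.0. Median signals of the 30 arrays ranged from 38.0 to 64.1. In whole cultures, fewer cells of a type and less RNA per cell cannot be told apart.

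The genes did not move as one. Tagln, Myl9 and Cnn2 were highest in ER-MyoD wt at 0 h, were lower there at 24 h, and were lower in ER-MyoD RRR at 24 h than at 6 h. Lmod1 fell to 12 h in ER-MyoD wt and rose again by 24 h, when Smtn also rose. Cald1 fell in ER-MyoD wt, while Mylk, Cnn1 and Myh11 were dim and gave few calls. In all, 5 of 9 genes were higher in ER-MyoD wt than in empty retrovirus cells at 6 h and 0 were lower, where 6.5% of the 18193 genes were higher and 6.23% lower (limma, Benjamini-Hochberg adjusted p under 0.05). At 24 h the 9 genes split into 3 higher and 2 lower, beside 11.4% and 14% of all genes.

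**Figure D1:**
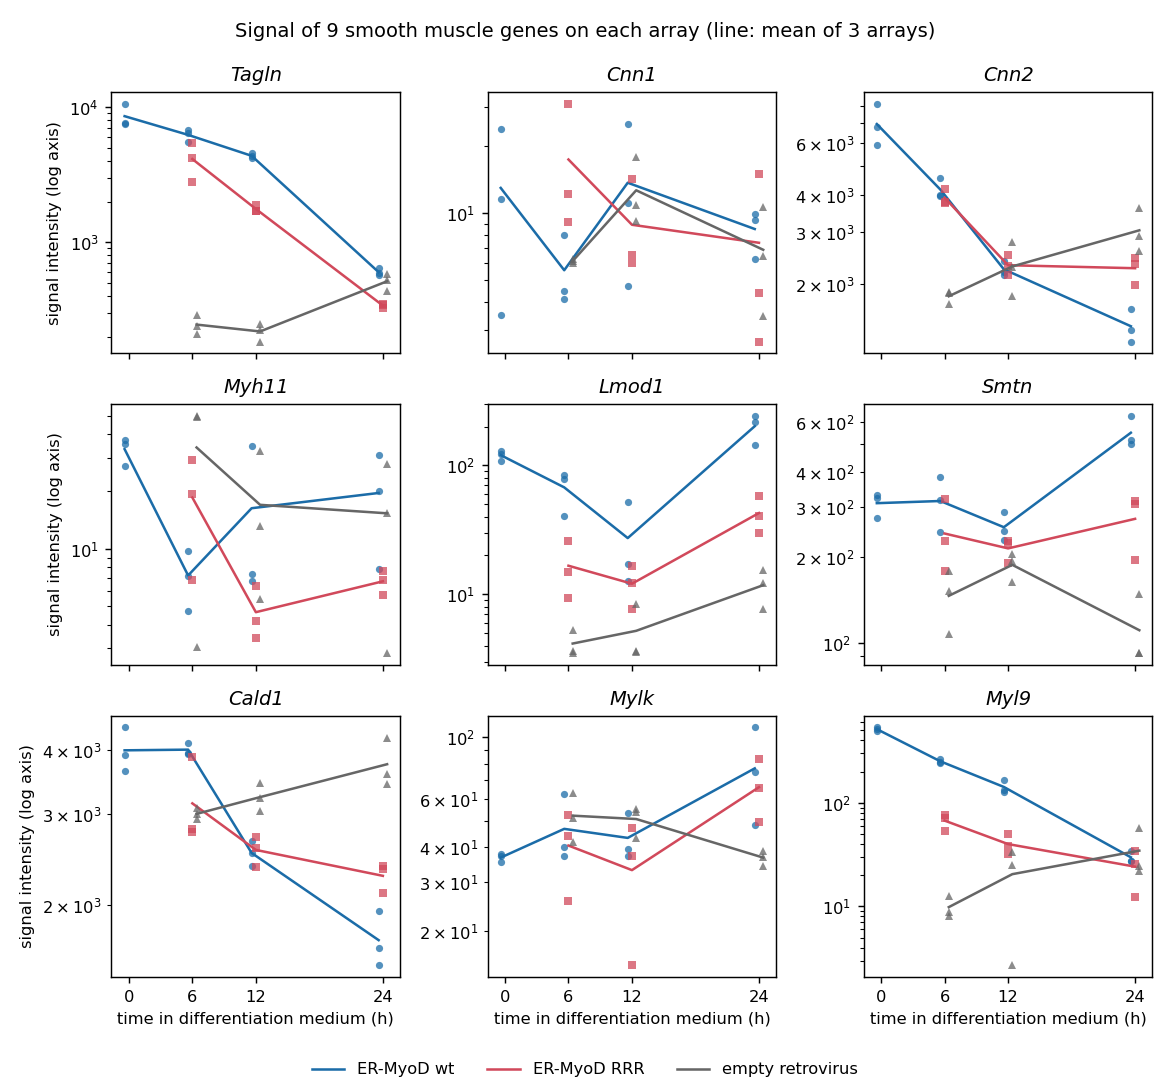
Signal intensity (log axis) of the brightest probe set of each of the 9 genes against time in differentiation medium, with 1 point per array and a line through the mean of 3 arrays, for ER-MyoD wt, ER-MyoD RRR and empty retrovirus. Tagln and Myl9 started at means of 8553 and 514 in ER-MyoD wt at 0 h and ended at 601 and 29.8 at 24 h, Lmod1 and Smtn rose between 12 and 24 h, and no array of Cnn1 or Myh11 exceeded 49.9.

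Tagln encodes an actin-binding protein of smooth muscle and of activated fibroblasts. In ER-MyoD wt cells its signal was 7584, 10550 and 7525 on the 3 arrays at 0 h, 6773, 6389 and 5501 at 6 h, 4539, 4339 and 4191 at 12 h, and 641, 572 and 590 at 24 h. In ER-MyoD RRR cells it was 4198, 2772 and 5403 at 6 h, 1693, 1707 and 1890 at 12 h, and 350, 346 and 326 at 24 h. Empty retrovirus cells gave 241, 209 and 289 at 6 h, 184, 226 and 247 at 12 h, and 528, 436 and 580 at 24 h. Thus every ER-MyoD wt array lay below those of the time before it, and the mean at 24 h was 7.03% of that at 0 h. In the order of the 10 group means, ER-MyoD wt at 12 h overlapped ER-MyoD RRR at 6 h, ER-MyoD wt at 24 h overlapped empty retrovirus at 24 h, and empty retrovirus at 6 h overlapped that at 12 h, while all other neighbours were apart.

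The Tagln difference between ER-MyoD wt and empty retrovirus was 4.63 ± 0.17 on the log2 scale at 6 h (± SE of the model, as for all differences given here; limma, adjusted p = 5.8e-18) and 4.26 ± 0.17 at 12 h (adjusted p = 3.1e-17). At 24 h it was 0.23 ± 0.17 and did not pass (adjusted p = 0.36), as the first fell and the second rose by 1.09 ± 0.17 from 6 h (adjusted p = 1.5e-05). ER-MyoD RRR lay below ER-MyoD wt at all 3 times. The difference was -0.76 ± 0.17 at 6 h (adjusted p = 0.0074), -1.30 ± 0.17 at 12 h (adjusted p = 1.2e-05) and -0.80 ± 0.17 at 24 h (adjusted p = 0.0028). At 6 h that call did not hold without ER-MyoD RRR replicate 2 (-0.49, adjusted p = 0.052) or without ER-MyoD wt replicate 1 (-0.69, adjusted p = 0.057). It also did not hold with median centring in place of quantile normalization (-0.67, adjusted p = 0.12) or in a fit of only the arrays compared (adjusted p = 0.19). ER-MyoD RRR replicate 2 at 6 h also had the highest ratios of 3' to 5' control signal of all arrays, 3.61 for Actb and 2.44 for Gapdh, and the part of these in the result was not tested.

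Against empty retrovirus, Tagln in ER-MyoD RRR was higher by 3.87 ± 0.17 at 6 h (adjusted p = 9.1e-16) and by 2.96 ± 0.17 at 12 h (adjusted p = 1.6e-13). It was lower at 24 h, at -0.56 ± 0.17 (adjusted p = 0.015), a call that did not hold without empty retrovirus replicate 1 (adjusted p = 0.053) or replicate 3 (adjusted p = 0.078). Tagln was already high in ER-MyoD wt at 0 h, from which empty retrovirus cells at 6 h differed by -4.93 ± 0.17 (adjusted p = 2.8e-18).

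Myl9 encodes the regulatory light chain that is phosphorylated in contracting smooth muscle and non-muscle cells. Its ER-MyoD wt signal was 519, 490 and 533 at 0 h, 267, 240 and 247 at 6 h, 167, 127 and 133 at 12 h, and 27.7, 27.7 and 33.9 at 24 h. With ER-MyoD RRR the arrays gave 76.3, 53.6 and 72.1 at 6 h, 49.7, 31.7 and 38.4 at 12 h, and 34.5, 25.7 and 12.4 at 24 h. With empty retrovirus they gave 8.10, 8.86 and 12.6 at 6 h, 33.3, 25.4 and 2.70 at 12 h, and 57.5, 21.7 and 24.3 at 24 h. The ER-MyoD wt arrays were above all others to 12 h, and at 24 h the 3 constructs overlapped.

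The Myl9 difference between ER-MyoD wt and empty retrovirus was 3.43 ± 0.28 at 6 h (limma, adjusted p = 3.9e-10), 2.34 ± 0.28 at 12 h (adjusted p = 3.4e-07) and -0.01 ± 0.28 at 24 h (adjusted p = 0.99). The empty retrovirus signals at 6 h lie in the range of the dim Cnn1 and Myh11, so the size of the first value is set in part by the offset of 16 added before the log: it was 4.68 with an offset of 1 and 2.12 with 64, and passed with each. ER-MyoD RRR was lower than ER-MyoD wt by -1.62 ± 0.28 at 6 h (adjusted p = 0.0010) and -1.47 ± 0.28 at 12 h (adjusted p = 0.0034). The latter call did not hold with an offset of 1 (-1.76, adjusted p = 0.091). The Myl9 signal of ER-MyoD wt had already fallen at 6 h from 0 h, at -0.95 ± 0.28 (adjusted p = 0.016), a call that did not hold without replicate 3 of 0 h (-0.93, adjusted p = 0.054) or with an offset of 1 (adjusted p = 0.21). For Tagln that step was -0.30 ± 0.17 (adjusted p = 0.25). By 24 h both were far below 0 h, Tagln at -3.61 ± 0.17 (adjusted p = 4.6e-16) and Myl9 at -3.54 ± 0.28 (adjusted p = 3.9e-11). In ER-MyoD RRR, the level at 24 h minus that at 6 h was -3.35 ± 0.17 for Tagln (adjusted p = 8.0e-15) and -1.29 ± 0.28 for Myl9 (adjusted p = 8.3e-04).

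Cnn2 encodes a calponin that is found in many motile cells besides smooth muscle. The ER-MyoD wt arrays read 5916, 8113 and 6778 at 0 h, 3951, 4549 and 4011 at 6 h, 2151, 2391 and 2192 at 12 h, and 1398, 1648 and 1280 at 24 h. Those of ER-MyoD RRR read 3779, 3765 and 4195 at 6 h, 2145, 2300 and 2505 at 12 h, and 2450, 1994 and 2346 at 24 h. Those of empty retrovirus read 1712, 1865 and 1885 at 6 h, 2286, 1828 and 2770 at 12 h, and 2912, 2581 and 3620 at 24 h. The order of the constructs turned over: empty retrovirus was lowest at 6 h, all 3 overlapped at 12 h, and at 24 h ER-MyoD wt was lowest and empty retrovirus highest with no overlap.

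ER-MyoD wt exceeded empty retrovirus in Cnn2 by 1.02 ± 0.14 at 6 h (limma, adjusted p = 2.4e-06) and was below it at 24 h, at -1.20 ± 0.14 (adjusted p = 5.5e-08). From 0 h the gene fell in ER-MyoD wt at each time, to -2.09 ± 0.14 at 24 h (adjusted p = 6.5e-13), and in empty retrovirus cells it rose from 6 h to 24 h by 0.79 ± 0.14 (adjusted p = 9.2e-05). ER-MyoD RRR did not pass against ER-MyoD wt at 6 h (-0.14 ± 0.14, adjusted p = 0.67) and was higher at 24 h, by 0.73 ± 0.14 (adjusted p = 0.0011). With median centring in place of quantile normalization that last value was 0.52 and did not pass (adjusted p = 0.16).

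**Figure D2:**
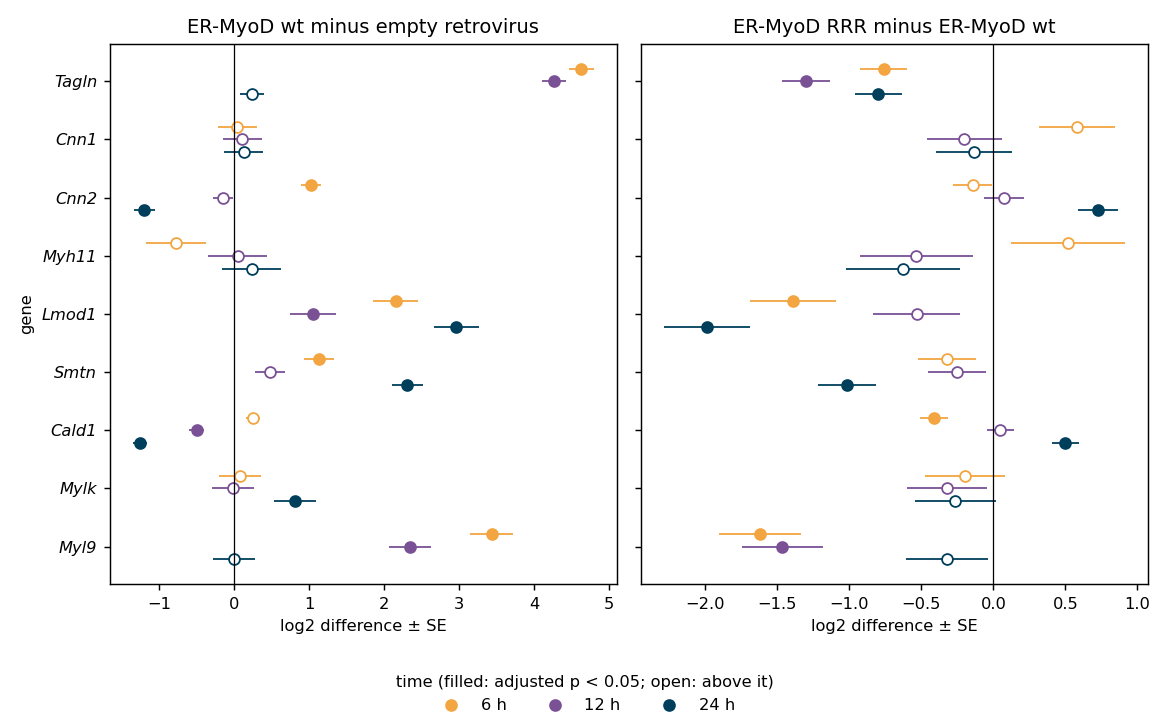
Log2 differences with their standard errors for the 9 genes at 6, 12 and 24 h, for ER-MyoD wt minus empty retrovirus (left) and ER-MyoD RRR minus ER-MyoD wt (right), n = 3 arrays per group. Filled points passed an adjusted p of 0.05: Tagln and Myl9 lie at 4.63 and 3.43 on the left at 6 h and near 0 at 24 h, Lmod1 and Smtn reach 2.96 and 2.31 at 24 h, and on the right Cnn2 and Cald1 are above 0 at 24 h while Tagln, Lmod1 and Smtn are below.

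Lmod1 encodes leiomodin 1, which starts new actin filaments in smooth muscle. On the ER-MyoD wt arrays its signal was 109, 130 and 121 at 0 h, 40.7, 77.9 and 83.8 at 6 h, 17.0, 12.7 and 52.1 at 12 h, and 217, 243 and 144 at 24 h. The ER-MyoD RRR arrays had 9.33, 14.9 and 25.7 at 6 h, 7.64, 12.1 and 16.4 at 12 h, and 57.5, 40.4 and 30.1 at 24 h. The empty retrovirus arrays had 3.48, 5.32 and 3.64 at 6 h, 8.46, 3.61 and 3.55 at 12 h, and 15.3, 12.2 and 7.71 at 24 h. At each time all ER-MyoD wt arrays were above those of empty retrovirus, and ER-MyoD wt was lowest at 12 h. The ER-MyoD RRR arrays were all above empty retrovirus at 6 and 24 h and overlapped it at 12 h, where the array at 7.64 lay below the one at 8.46.

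Lmod1 was higher in ER-MyoD wt than with empty retrovirus at all 3 times, by 2.15 ± 0.30 (limma, adjusted p = 5.0e-06), 1.05 ± 0.30 (adjusted p = 0.015) and 2.96 ± 0.30 (adjusted p = 6.9e-09). The call at 12 h did not hold without ER-MyoD wt replicate 3 (0.64, adjusted p = 0.17) or in a fit of only the arrays compared (adjusted p = 0.083). In ER-MyoD wt the level at 12 h minus that at 0 h was -1.82 ± 0.30 (adjusted p = 3.6e-05), and it rose from 12 h to 24 h by 2.30 ± 0.30 (adjusted p = 1.1e-06). The level at 24 h was not told apart from that at 0 h (0.48 ± 0.30, adjusted p = 0.26). ER-MyoD RRR was lower than ER-MyoD wt at 6 h (-1.39 ± 0.30, adjusted p = 0.0074, and -1.24, adjusted p = 0.052, without ER-MyoD wt replicate 3) and at 24 h (-1.99 ± 0.30, adjusted p = 9.3e-05). In a fit of only the arrays compared, that call at 6 h did not hold (adjusted p = 0.12). Within ER-MyoD RRR the difference from 12 h to 24 h was 0.85 ± 0.30 and just missed the threshold (adjusted p = 0.055). At the low signals of Lmod1 outside ER-MyoD wt the offset sets part of the size: the difference of 2.15 at 6 h was 3.94 with an offset of 1 and 1.01 with 64. The one at 12 h did not pass with 64 (0.43, adjusted p = 0.074).

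Smtn encodes smoothelin, a protein of contractile smooth muscle that is also made in other tissues. Its ER-MyoD wt values were 324, 333 and 274 at 0 h, 319, 382 and 246 at 6 h, 248, 288 and 230 at 12 h, and 631, 516 and 501 at 24 h. Its ER-MyoD RRR values were 229, 178 and 320 at 6 h, 225, 192 and 229 at 12 h, and 195, 309 and 315 at 24 h. Its empty retrovirus values were 108, 179 and 152 at 6 h, 206, 164 and 194 at 12 h, and 148, 91.6 and 92.1 at 24 h. The 3 ER-MyoD wt arrays at 24 h stood above all other 27 arrays.

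The Smtn difference between ER-MyoD wt and empty retrovirus was 1.13 ± 0.20 at 6 h (limma, adjusted p = 1.8e-04), 0.48 ± 0.20 at 12 h (adjusted p = 0.13) and 2.31 ± 0.20 at 24 h (adjusted p = 4.2e-10). In the fit used throughout, Smtn was the only one of the 9 genes that passed as higher at 24 h than at 0 h in ER-MyoD wt, by 0.75 ± 0.20 (adjusted p = 0.0044). It rose by 1.06 ± 0.20 from 12 h (adjusted p = 2.7e-04). ER-MyoD RRR was lower than ER-MyoD wt at 24 h, at -1.01 ± 0.20 (adjusted p = 0.0020), and still higher than empty retrovirus, by 1.29 ± 0.20 (adjusted p = 2.0e-05).

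Cald1 encodes caldesmon, which restrains the myosin motor on actin and is made as a smooth muscle form and a form of other cells. Its brightest probe set, 1424769_s_at, gave 3918, 4430 and 3647 in ER-MyoD wt at 0 h, 3936, 4139 and 3957 at 6 h, 2526, 2381 and 2663 at 12 h, and 1648, 1946 and 1525 at 24 h. In ER-MyoD RRR it gave 2804, 3879 and 2773 at 6 h, 2374, 2716 and 2584 at 12 h, and 2344, 2108 and 2379 at 24 h. In empty retrovirus cells it gave 2936, 3001 and 3083 at 6 h, 3047, 3448 and 3229 at 12 h, and 3443, 4230 and 3597 at 24 h. ER-MyoD wt was above empty retrovirus on every array at 6 h and below it on every array at 12 and 24 h.

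The Cald1 difference between ER-MyoD wt and empty retrovirus was 0.25 ± 0.10 at 6 h (limma, adjusted p = 0.094), -0.50 ± 0.10 at 12 h (adjusted p = 2.8e-04) and -1.26 ± 0.10 at 24 h (adjusted p = 2.6e-11). The value at 6 h did pass on the values as deposited (0.41, adjusted p = 0.028), with median centring (0.61, adjusted p = 0.026) and without 3 arrays of other groups that stood apart from their replicates (0.25, adjusted p = 0.028), which were ER-MyoD RRR replicate 2 at 6 h, empty retrovirus replicate 1 at 12 h and ER-MyoD wt replicate 3 at 24 h. The call at 12 h did not hold on the values as deposited (-0.36, adjusted p = 0.056) or with median centring (-0.20, adjusted p = 0.58). In ER-MyoD wt the mean at 24 h was 42.7% of that at 0 h (adjusted p = 1.6e-09). ER-MyoD RRR was lower than ER-MyoD wt at 6 h (-0.41 ± 0.10, adjusted p = 0.012) and higher at 24 h (0.50 ± 0.10, adjusted p = 0.0014). The call at 6 h did not hold without ER-MyoD RRR replicate 1 (adjusted p = 0.056), without its replicate 3 (adjusted p = 0.10) or without ER-MyoD wt replicate 3 (adjusted p = 0.053). Neither call held with median centring (adjusted p = 0.33 and 0.48) or on the values as deposited (adjusted p = 0.11 and 0.054). In a fit of only the arrays compared, the call at 6 h did not hold (adjusted p = 0.24). With the mean of all probe sets, the call at 24 h did not hold (0.46, adjusted p = 0.10).

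The other 4 probe sets of Cald1 did not all follow the brightest one. Probe set 1424770_at fell in ER-MyoD wt as early as 6 h, from 1488, 3754 and 1870 at 0 h to 1303, 805 and 1582 (-0.77 ± 0.22; limma over all 45037 probe sets, adjusted p = 0.023), although the groups overlapped. In that comparison 10.5% of all probe sets passed in either direction, and the brightest Cald1 probe set did not. At 24 h it was 362, 357 and 495 in ER-MyoD wt and 1124, 1031 and 1038 in empty retrovirus cells (-1.45 ± 0.22, adjusted p = 1.5e-05). Probe set 1433147_at was higher in every empty retrovirus array, from 88.2 to 195, than in any ER-MyoD wt or ER-MyoD RRR array, from 9.96 to 69.8. Its difference between ER-MyoD wt and empty retrovirus was -1.07 ± 0.35 at 6 h (adjusted p = 0.065), -1.24 ± 0.35 at 12 h (adjusted p = 0.021) and -1.66 ± 0.35 at 24 h (adjusted p = 8.3e-04). Thus 4 of the 5 probe sets were called lower in ER-MyoD wt at 24 h, where 16.8% of all probe sets passed in either direction. At 12 h 9.05% of all probe sets passed in either direction. The fifth, 1433146_at, did not exceed 29.5 on any array. The annotation used here does not say which caldesmon form a probe set reads.

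Probe set 1424768_at varied more between arrays of a group than the others. On the 5 arrays with the highest 3' to 5' ratio of Actb, from 1.74 to 3.61, its signal was 146 to 553, the lowest of its group each time. On the other 25 arrays, with ratios from 1.07 to 1.65, it was 698 to 2284. These ratios rise when RNA is degraded or copied short, and their part in the result was not tested.

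**Figure D3:**
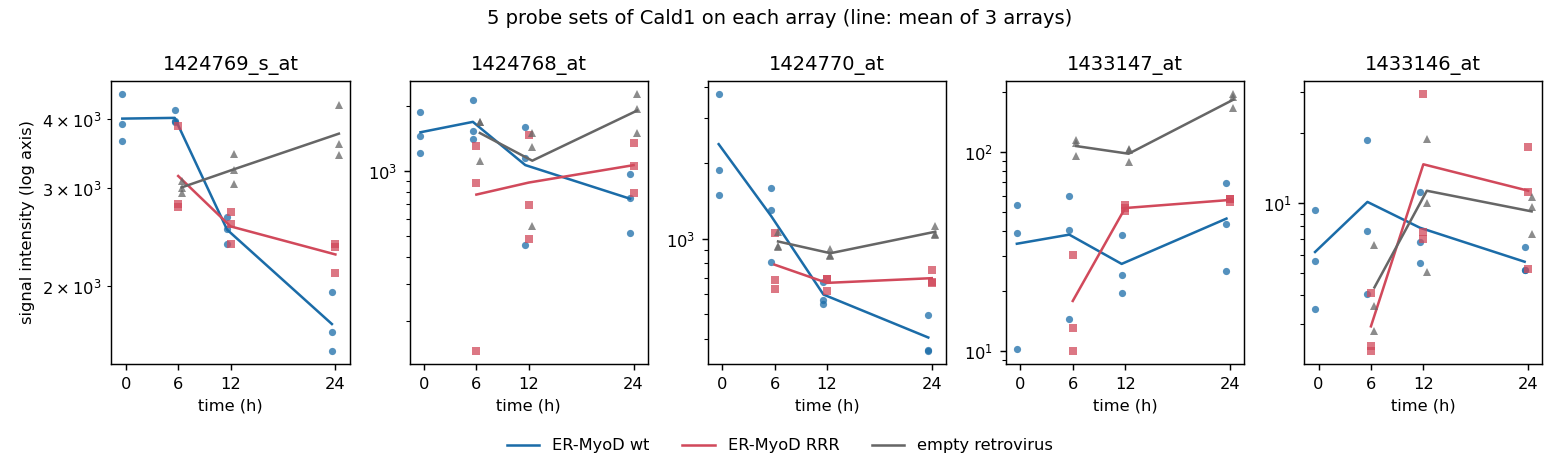
Signal intensity (log axis) of the 5 probe sets of Cald1 against time, with 1 point per array and a line through the mean of 3 arrays, for ER-MyoD wt, ER-MyoD RRR and empty retrovirus. Probe set 1433147_at lies between 88.2 and 195 in empty retrovirus cells and at most at 69.8 elsewhere, 1424770_at falls from 0 h to 6 h in ER-MyoD wt, and 1424768_at has a single low array of 146 in ER-MyoD RRR at 6 h.

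Mylk encodes the kinase that phosphorylates the regulatory light chain. Its brightest probe set ranged from 15.0 to 109 over the 30 arrays, with means of 36.7 ± 1.30 in ER-MyoD wt at 0 h, 77.2 ± 30.2 at 24 h, and 36.7 ± 2.31 in empty retrovirus cells at 24 h. The gene was called once in the comparisons between constructs, as higher in ER-MyoD wt than empty retrovirus at 24 h (0.80 ± 0.28; limma, adjusted p = 0.034). That call did not hold without ER-MyoD wt replicate 2, the highest array (0.49, adjusted p = 0.25), nor without empty retrovirus replicate 1 (adjusted p = 0.088) or replicate 2 (adjusted p = 0.098). From 0 h to 24 h in ER-MyoD wt, Mylk was not called (0.60, adjusted p = 0.11). It passed there as higher on the values as deposited (0.77, adjusted p = 0.039) and without ER-MyoD wt replicate 1 of 24 h (0.82, adjusted p = 0.046). The other 2 probe sets of Mylk, at median percentiles of 35.5 and 29.7, passed in 0 of the 20 comparisons.

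Cnn1 ranged from 2.66 to 31.1 over the 30 arrays, and each group overlapped the next in the order of means. It passed in 0 of the 20 comparisons at an adjusted p of 0.05. The brighter probe set of Myh11 ranged from 2.83 to 49.9 and passed once, as lower in ER-MyoD wt at 6 h than at 0 h (-1.15 ± 0.39; limma, adjusted p = 0.043). At 0 h the 3 arrays gave 27.1, 37.4 and 35.5, and at 6 h 9.77, 4.74 and 7.22. That call did not hold when any 1 of the 6 arrays was left out (adjusted p from 0.062 to 0.13), and the other Myh11 probe set ranged from 2.21 to 9.10. These signals are too dim to say more than that no clear course was detectable.

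Counted over the 9 genes, ER-MyoD RRR was lower than ER-MyoD wt in 4 and higher in 0 at 6 h, where 2.03% of all genes were lower and 1.63% higher. At 12 h the counts were 2 lower and 0 higher, against 0.879% and 0.874% of all genes. At 24 h they were 3 lower and 2 higher, against 2.03% and 3.34%. With median centring the counts were 2 lower and 0 higher at 6 h and 3 lower and 0 higher at 24 h. In that setting 1.4% of all genes were called at 6 h and 2.61% at 24 h, in either direction. In a fit of only the arrays compared, 1 gene was lower at 6 h, and without ER-MyoD wt replicate 3 it was 2. Tagln was the only gene called lower at each of the 3 times, with the limits of its call at 6 h given above. The median difference of the 9 genes was -0.32 at each of the 3 times, where that of all genes was 0.05, 0.01 and 0.00. That median was the value of a different gene each time, Smtn at 6 h, Mylk at 12 h and Myl9 at 24 h. None of these values was called, so the equal medians do not show a constant shift of the genes.

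ER-MyoD RRR against empty retrovirus gave 4 genes higher and 0 lower at 6 h (Tagln, Cnn2, Smtn and Myl9), beside 7.18% and 6.63% of all genes. The Smtn call (0.81 ± 0.20, adjusted p = 0.0061) did not hold without ER-MyoD RRR replicate 3 (0.62, adjusted p = 0.065), without empty retrovirus replicate 1 (0.61, adjusted p = 0.071) or in a fit of only the arrays compared (adjusted p = 0.081). At 12 h it gave 2 higher (Tagln and Myl9) and 1 lower (Cald1), against 5.11% and 4.97%, and 1 higher and 0 lower with median centring or on the values as deposited. In those settings 7.65% and 10.3% of all genes were called, in either direction. The Myl9 call at 12 h (0.88 ± 0.28; limma, adjusted p = 0.045) did not hold without ER-MyoD RRR replicate 1 (adjusted p = 0.19), without its replicate 3 (adjusted p = 0.099) or without empty retrovirus replicate 3 (0.49, adjusted p = 0.34). At 24 h 2 were higher (Lmod1 and Smtn) and 3 lower (Tagln, Cnn2 and Cald1), against 8.57% and 10.5%. These 5 calls became 3 without empty retrovirus replicate 1 and 2 without its replicate 3, where the Tagln, Cnn2 and Lmod1 calls did not hold (adjusted p = 0.078, 0.095 and 0.076). The Cnn2 call also did not hold as deposited or with median centring (adjusted p = 0.052 and 0.085). Nor did it hold in a fit of only the arrays compared or without ER-MyoD RRR replicate 2 (adjusted p = 0.057 and 0.072). The Lmod1 call failed with an offset of 64 (adjusted p = 0.059) and without ER-MyoD RRR replicate 1 (adjusted p = 0.11). It also failed without empty retrovirus replicate 2 (adjusted p = 0.0505).

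ER-MyoD wt against empty retrovirus at 12 h gave 3 genes higher and 1 lower, against 7.16% and 8.26% of all genes. With median centring 3 were higher and 0 lower, where 12.1% of all genes were called in either direction. These comparisons share the empty retrovirus or the ER-MyoD wt arrays.

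ER-MyoD wt at 0 h served as the reference for what was already high. Against it, 3 of the 9 genes were lower and 0 higher in ER-MyoD wt at 6 h (8.2% of all genes were lower and 9.52% higher). There were 5 lower and 0 higher at 12 h (9.85% and 10.5%), and 4 lower and 1 higher at 24 h (16.2% and 14.5%). Without replicate 3 of 0 h, 1 gene was lower at 6 h. In ER-MyoD RRR at 6 h 4 were lower: Tagln at -1.06 ± 0.17, Cnn2 at -0.79 ± 0.14, Lmod1 at -2.14 ± 0.30 and Myl9 at -2.57 ± 0.28 (limma, adjusted p from 2.3e-07 to 1.9e-04), where 3.68% of all genes were lower and 5.32% higher. In empty retrovirus cells at 6 h the same 4 genes and Smtn were lower, with Smtn at -1.17 ± 0.20 (adjusted p = 7.6e-05), where 8.81% were lower and 10% higher. As a share of the ER-MyoD wt mean at 0 h, Tagln at 6 h was at 72.7% in ER-MyoD wt, 48.2% in ER-MyoD RRR and 2.88% in empty retrovirus cells. Myl9 was at 48.9%, 13.1% and 1.91%, and Lmod1 at 56.2%, 13.9% and 3.45%. The empty retrovirus shares of Myl9 and Lmod1 rest on signals as dim as those of Cnn1 and Myh11 and are best read as upper bounds. Cald1 in empty retrovirus cells at 6 h stood at 75.2% of that mean and was not called (-0.11 ± 0.10, adjusted p = 0.54), but it was called lower on the values as deposited (-0.40, adjusted p = 0.023) and with median centring (-0.60, adjusted p = 0.018).

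Later steps were compared after the levels had been seen. From 12 h to 24 h in ER-MyoD wt, 4 of the 9 genes fell (Tagln, Cnn2, Cald1 and Myl9) and 2 rose (Lmod1 and Smtn), where 9.22% of all genes fell and 7.99% rose. That fall of Cald1 (-0.50; limma, adjusted p = 2.5e-04) did not hold with the mean of all probe sets (-0.23, adjusted p = 0.41). In ER-MyoD RRR over the same step only Tagln passed, as lower (-2.29 ± 0.17; limma, adjusted p = 2.7e-11), where 8.27% of all genes fell and 7.15% rose. Lmod1 passed there as higher without replicate 3 of 24 h (1.01, adjusted p = 0.045) and on the values as deposited (1.05, adjusted p = 0.015). It also passed with the mean of all probe sets, without the trend and with an offset of 1 (adjusted p from 0.040 to 0.049). Without the 3 arrays that stood apart it passed too (adjusted p = 0.049), and it stayed uncalled in 10 of 16 settings. From 6 h to 24 h ER-MyoD RRR had 3 lower (Tagln, Cnn2 and Myl9), where 12.9% of all genes fell and 11% rose, and empty retrovirus cells had 4 higher (Tagln, Cnn2, Cald1 and Myl9), where 8.09% rose and 7.66% fell. The rise of Cald1 (0.37 ± 0.10, adjusted p = 0.0071) did not hold on the values as deposited (0.31, adjusted p = 0.11), with the mean of all probe sets (0.38, adjusted p = 0.11) or with median centring (0.31, adjusted p = 0.34). The rise of Myl9 in empty retrovirus cells (0.85 ± 0.28, adjusted p = 0.037) did not hold without replicate 1 of 24 h (0.58, adjusted p = 0.25), nor without any 1 of the 3 arrays of 6 h (adjusted p from 0.058 to 0.11).

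The shift of each difference from 6 h to 24 h was tested as well. In ER-MyoD wt against empty retrovirus it was downward for 4 of the 9 genes (Tagln, Myl9, Cnn2 and Cald1) and upward for 1 (Smtn), where 8.26% of all genes shifted down and 6.46% up. For ER-MyoD RRR against ER-MyoD wt it was upward for 2 (Cnn2 and Cald1) and downward for 0, where 1.33% of all genes shifted up and 0.704% down. With median centring 0 of the 9 and 0.264% of all genes passed (limma). The shift of Tagln in that comparison was -0.04 ± 0.23 and did not pass (adjusted p = 0.97), and that of Myl9 was 1.30 ± 0.40 (adjusted p = 0.088).

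Across the 10 group means, Tagln and Myl9 were the pair of genes most alike (Pearson's r = 0.93), followed by Lmod1 and Smtn (r = 0.86). Smtn and Cald1 ran most against each other (r = -0.66). These are descriptions over 10 means that share time points and arrays. Of the 8103 genes whose group means spanned at least 1 on the log2 scale, those most like Tagln were Htra2, P3h4 and Actg2 (r = 0.955, 0.954 and 0.954) and those most like Myl9 were Fhl1, Ctsw and Actg2 (r = 0.977, 0.969 and 0.957). The genes nearest to Cnn2 were Hoxb5os, Eva1b and Slit2 (r from 0.942 to 0.953), and those nearest to Lmod1 were Gm5148, Cry1 and Ttll11 (r from 0.911 to 0.928). Smtn was nearest to Cox17, Mtmr10 and Dlst (r from 0.946 to 0.951), Cald1 to Itgav, Lpp and Arhgap31 (r from 0.935 to 0.963), and Mylk to Rec114, Prkab2 and Lmod3 (r from 0.911 to 0.933). For Cnn1 and Myh11 the nearest genes were Akr1c21 (r = 0.921) and Il12rb1 (r = 0.933), but both members were near the bottom of the arrays.

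Other genes of the smooth muscle apparatus were taken from a list of 20. At 6 h 8 of the 20 were higher in ER-MyoD wt than in empty retrovirus cells and 0 lower, at 12 h 6 and 1, and at 24 h 3 and 7. Of all genes, 6.5% were higher and 6.23% lower at 6 h, 7.16% and 8.26% at 12 h, and 11.4% and 14% at 24 h. The 4 with the smallest p at 6 h were Acta2 and Actg2 (smooth muscle actins), Csrp1 (a LIM protein of actin bundles) and Tpm1 (tropomyosin). Actg2 had the larger difference of the actins, 5.25 ± 0.27 at 6 h, 5.15 ± 0.27 at 12 h and 1.64 ± 0.27 at 24 h (limma, adjusted p = 1.5e-14, 1.5e-14 and 1.7e-05). Its group mean went from 2064 in ER-MyoD wt at 0 h to 139 at 24 h, and it was 247, 118 and 70.3 in ER-MyoD RRR at 6, 12 and 24 h. ER-MyoD RRR was lower than ER-MyoD wt in Actg2 by -2.13, -2.58 and -0.95 (± 0.27 each; adjusted p = 1.8e-05, 7.0e-07 and 0.032).

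Acta2 had differences of 3.22, 2.98 and 0.58 between ER-MyoD wt and empty retrovirus (± 0.10 each; limma, adjusted p = 9.0e-19, 2.2e-18 and 4.4e-05). Its course in ER-MyoD wt was flatter than those of Tagln and Actg2 in the group means, from 11718 at 0 h to 8106 ± 989 at 24 h, which was -0.52 ± 0.10 in the fit (adjusted p = 1.4e-04), and the difference between these courses was not tested. In empty retrovirus cells its mean was 1074 ± 131 at 6 h and 4692 ± 486 at 24 h. Against ER-MyoD wt, ER-MyoD RRR was lower in Acta2 at 6 h (-0.39, adjusted p = 0.028) and 12 h (-0.57, adjusted p = 0.0012) and not called at 24 h (-0.22, adjusted p = 0.27). Csrp1 differed by 2.02, 1.64 and 0.55 between ER-MyoD wt and empty retrovirus, the first 2 passing. Tpm1 changed side, from 1.43 ± 0.16 at 6 h to -1.29 ± 0.16 at 24 h (adjusted p = 7.9e-08 and 1.7e-07).

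Among 12 genes of SRF and its cofactors, 2 were higher and 1 lower in ER-MyoD wt than in empty retrovirus cells at 6 h, 0 and 3 at 12 h, and 0 and 4 at 24 h. The shares of all genes, higher and lower, were 6.5% and 6.23%, 7.16% and 8.26%, and 11.4% and 14%. Srf itself was 0.65 ± 0.15 higher at 6 h (limma, adjusted p = 0.0026) and not called at 12 h (-0.10) or 24 h (0.33). In ER-MyoD wt its mean went from 1015 ± 120 at 0 h to 477 ± 45.5 at 24 h (-0.96 ± 0.15, adjusted p = 6.0e-06). Fhl2, a LIM cofactor, was 0.97 ± 0.14 higher at 6 h (adjusted p = 6.9e-06), and Klf4, a repressor of smooth muscle genes, was lower at 6 h (-0.98 ± 0.31, adjusted p = 0.038) and at 24 h (-1.18 ± 0.31, adjusted p = 0.0051). Tgfb1i1, a cofactor that answers TGF-beta, was lower at 24 h (-1.42 ± 0.19, adjusted p = 7.4e-07). ER-MyoD RRR was called against ER-MyoD wt in 0 of the 12 genes at 6 and 12 h and was higher in 3 at 24 h. Of all genes, 3.66% and 1.75% were called at 6 and 12 h, and 3.34% were higher and 2.03% lower at 24 h.

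Of the 16 paralogs of the 9 genes, 3 were higher and 0 lower in ER-MyoD wt than in empty retrovirus cells at 6 h, 4 and 2 at 12 h, and 2 and 3 at 24 h. The shares of all genes, higher and lower, were 6.5% and 6.23%, 7.16% and 8.26%, and 11.4% and 14%. Cnn3, the third calponin, was higher at 6 h (0.82 ± 0.12; limma, adjusted p = 1.8e-05) and 12 h (0.60 ± 0.12, adjusted p = 8.5e-04) and lower in ER-MyoD RRR than ER-MyoD wt at 6 h (-0.71 ± 0.12, adjusted p = 0.0011). Tagln2, the transgelin of non-muscle cells, was not called at 6 h (0.21) or 12 h (-0.15) and was lower at 24 h (-1.15 ± 0.16, adjusted p = 2.4e-06), when ER-MyoD RRR was above ER-MyoD wt by 1.05 ± 0.16 (adjusted p = 1.4e-04). The non-muscle light chains Myl12a and Myl12b were 0.65 and 0.36 higher at 6 h, both called, with 0.10 and 0.14 at 24 h, neither called. Myh10, a non-muscle myosin heavy chain, was -1.84 ± 0.12 at 24 h (adjusted p = 1.7e-12). Arrays cannot be taken to keep close paralogs fully apart.

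The 16 measured myofibroblast and TGF-beta response genes turned from 8 higher and 1 lower in ER-MyoD wt than in empty retrovirus cells at 6 h to 5 and 2 at 12 h and 1 and 11 at 24 h. The shares of all genes, higher and lower, were 6.5% and 6.23%, 7.16% and 8.26%, and 11.4% and 14%. Tnc (tenascin C) was 2.63 ± 0.13 higher at 6 h and -0.39 ± 0.13 at 24 h (limma, adjusted p = 1.4e-14 and 0.030). Ccn2, a direct TGF-beta and serum target, had a mean of 7522 ± 426 in ER-MyoD wt at 0 h, 180 ± 8.15 at 6 h and 48.2 ± 18.8 at 24 h. Its difference from empty retrovirus cells at 6 h passed (2.70 ± 0.29, adjusted p = 7.3e-08) and not called at 24 h (-0.20). Itgb5 and Cdh11 were higher at 6 h (1.12 and 1.25) and lower at 24 h (-0.74 and -1.11), all called. ER-MyoD RRR was higher than ER-MyoD wt in 10 of these 16 genes at 24 h and lower in 0, beside 3.34% and 2.03% of all genes.

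**Figure D4:**
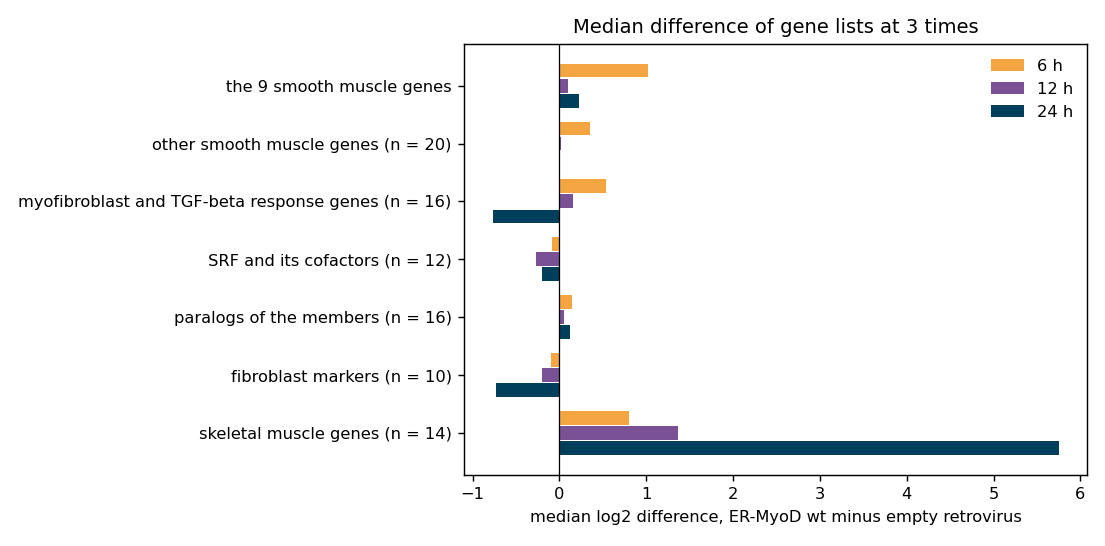
Median log2 difference between ER-MyoD wt and empty retrovirus at 6, 12 and 24 h for the 9 smooth muscle genes and 6 other gene lists, with n the genes measured. Bars start at 0: the 9 genes have medians of 1.02, 0.10 and 0.23, the myofibroblast and TGF-beta response genes go from 0.54 to -0.77, and the skeletal muscle genes rise from 0.80 to 5.76. The medians of the 9 genes at 12 and 24 h are the values of the dim Cnn1 and Myh11.

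The median of the 9 genes between ER-MyoD wt and empty retrovirus was 1.02, 0.10 and 0.23 at 6, 12 and 24 h, beside -0.01, -0.02 and 0.03 for all genes. At 12 h that median was the value of Cnn1 and at 24 h that of Myh11, both near the bottom of the arrays. It therefore does not stand for the brighter genes: at 12 h Tagln, Myl9 and Lmod1 were called higher and Cald1 lower. Markers of other cells moved with time and construct, and the lists share a few genes: Col1a1 and Col1a2 are in the fibroblast and the myofibroblast lists, and Des is in the pericyte, skeletal muscle and other smooth muscle lists. The shares of all genes, higher and lower in ER-MyoD wt, were 6.5% and 6.23% at 6 h, 7.16% and 8.26% at 12 h, and 11.4% and 14% at 24 h. Of 10 fibroblast markers, 2 were higher and 2 lower in ER-MyoD wt than in empty retrovirus cells at 6 h, 2 and 4 at 12 h, and 0 and 8 at 24 h, when Pdgfra was -4.49 and Dcn -2.07. The summed signal of these markers ranged over the 3 arrays from 26855 to 33388 in ER-MyoD wt at 24 h, and from 44829 to 53552 in empty retrovirus cells. Of 14 skeletal muscle genes, 7, 7 and 13 were higher at the 3 times and 0 lower, beside the same shares of all genes. The summed signal of these 14 genes rose from 1553 to 1681 in ER-MyoD wt at 0 h to 49041 to 58197 at 24 h. The part of these shifts in the results on the 9 genes was not tested.

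Markers of other contractile or vessel cells stayed mostly uncalled between ER-MyoD wt and empty retrovirus. Of all genes 6.5%, 7.16% and 11.4% were higher at 6, 12 and 24 h, and 6.23%, 8.26% and 14% lower. Of 8 pericyte markers 1, 1 and 2 were higher and 0, 0 and 1 lower at these times. Their summed signal lay between 352.9 and 720.5 on the ER-MyoD wt arrays and between 381.9 and 742.6 on those of empty retrovirus. Of 8 endothelial markers 0 were called by limma at any of the 3 times, with Vwf at group means of 3.22 to 10.3. Of 9 cardiac muscle markers 1 was called, Gata4 at 24 h (1.82). The summed signal of the cardiac markers at 24 h was 528.0 to 611.0 in ER-MyoD wt and 320.3 to 334.8 in empty retrovirus cells.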

How the data were processed

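The deposited values are linear signal intensities per probe set. They appear to have been scaled to a common level before deposit, since the mean after trimming 2% was about 150 on each deposited array. The scaling software is not given in the sources used here. Of 45101 probe sets, 64 controls were left out, and of the rest 34945 carried 1 gene symbol, 932 several and 9160 none. Intensities plus an offset of 16 were put on the log2 scale and quantile normalized. Each gene was represented by its brightest probe set with 1 symbol (18193 genes). The model was limma 3.58.1 (lmFit, then eBayes with a trend) in R 4.3.3, with 10 group means over 30 arrays and 20 residual degrees of freedom. Tests were two-sided, with Benjamini-Hochberg adjustment over all genes and a threshold of 0.05. A second fit covered all 45037 probe sets. Of 20 comparisons, 4 were added after levels were seen. Deviations of arrays with the same replicate number correlated at -0.11 to 0.18, so numbers were not taken to pair arrays. The number of arrays limits the precision. Members and lists were chosen with earlier results of these data known. The 9 members were named in full, and from each other list up to 4 genes with the smallest p between ER-MyoD wt and empty retrovirus at 6 h, plus Acta2, Actg2, Srf, Myocd, Cnn3, Tagln2, Myl12a and Myl12b. Scripts were tested on simulated data. The result of 1 further gene list is not reported here.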

Additional observations from a re-analysis of the deposited data

Results flagged for a closer look

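Differences between constructs that shifted from 6 h to 24 h, each tested by limma as the shift itself, are given here as values. Between ER-MyoD wt and empty retrovirus, the shift was -4.40 for Tagln (adjusted p = 1.5e-13), -3.44 for Myl9 (adjusted p = 2.5e-07), -2.23 for Cnn2 (adjusted p = 1.5e-09) and -1.51 for Cald1 (adjusted p = 3.0e-09). The shift of Smtn was upward, at 1.18 (adjusted p = 0.0040). Between ER-MyoD RRR and ER-MyoD wt, it was 0.87 for Cnn2 (adjusted p = 0.013) and 0.91 for Cald1 (adjusted p = 3.9e-04). With median centring the last pair became 0.64 and 0.69 and did not pass (adjusted p = 0.35 and 0.28). These shifts share arrays.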

How the results depend on the processing

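Values below are counts of the 9 genes that passed. With median centring, ER-MyoD RRR compared with ER-MyoD wt gave 2 at 6 h (4 in the report) and 3 at 24 h (5), ER-MyoD RRR against empty retrovirus 1 at 12 h (3), and the shift of the difference 0 (2). Of all genes 1.4%, 2.61%, 7.65% and 0.264% passed there, in either direction. On values as deposited the last pair of counts was 1 and 1, beside 10.3% and 1.77% of all genes. From 6 h to 24 h in ER-MyoD RRR both settings gave 5 (3), beside 22.8% of all genes with median centring and 24.8% as deposited. Fitting only the arrays compared gave 1 for the ER-MyoD pair at 6 h. An offset of 1 gave 1 for that comparison at 12 h (2) and 1 for ER-MyoD wt at 6 h against 0 h (3), beside 1.57% and 17.2% of all genes. From 12 h to 24 h in ER-MyoD RRR the count was 2 (1) as deposited, with the mean of all probe sets, without the trend, with an offset of 1, and without 3 arrays that stood apart, an alternative chosen after seeing the data. For that step 15.5% of all genes passed as deposited and 15.1% with an offset of 1. Leaving out 1 array gave 2 to 4 for the ER-MyoD pair at 6 h, 2 to 5 for ER-MyoD RRR against empty retrovirus at 24 h, 1 to 3 for ER-MyoD wt at 6 h against 0 h, and 1 to 2 for ER-MyoD RRR from 12 h to 24 h. With the replicate block, as an unpaired number only, all 20 counts were unchanged, for example 5 for ER-MyoD wt against empty retrovirus at 6 h. Of single-gene values, 2818 kept direction and side of the threshold, 32 gained and 78 lost the call, and none with a call reversed. A sign change of a value that passed under neither setting was counted as kept. Median centring moved the median of all genes between ER-MyoD wt and empty retrovirus at 6 h from -0.01 to 0.10, and values as deposited to -0.10. The causes were not tested. Dim signals limit Cnn1, Myh11 and Mylk.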
